A study of Cyprinodon variegatus with 4 samples.

Results

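The transcriptome of untreated sheepshead minnow larvae (Cyprinodon variegatus, a small estuarine fish) was described from 1 RNA library of whole larvae. Contigs, the assembled transcript sequences of the deposited table, were grouped by their protein description, and the FPKM of contigs with the same description was summed in the untreated library. FPKM counts the sequenced fragments of a contig per unit of its length and per library size, so levels can be compared between genes. Of 9608 descriptions, 399 summed to at least 100 FPKM. They covered 1584 of the 24404 annotated contigs, out of 257521 contigs in all.

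The series held 4 libraries, 1 per group, and every exposure lasted 10 days. Larvae of the untreated control received neither fibres nor detergent. The surfactant control received the detergent Tween 80 at 0.001%, and the remaining groups received microfibres of PET (polyethylene terephthalate, a polyester used in clothing) at 10 mg/L or 100 mg/L. The labels give the stage of all groups as 72 h after fertilization and the tissue as whole body, and do not state for each sample whether the fibre suspensions held Tween 80. Their protocol names 72 h as the age of the larvae that were exposed, and the age at sampling is not stated in so many words. With 1 library per group no replicate error exists, so no test was run, and the other 3 libraries served as a check of stability. Unless stated otherwise, a level is a sum of FPKM in the untreated library, and 4 values in a row follow the order untreated control, surfactant control, PET 10 mg/L and PET 100 mg/L.

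Swimming fish larvae carry much of their body mass as fast trunk muscle, which drives escape and feeding strikes. An exocrine pancreas secretes proteases, amylase and lipase into the gut, the lens of the eye is packed with crystallins, and a thin keratin-rich epidermis covers the body. Growing cells also spend much of their mRNA on ribosomal proteins and on the respiratory chain. RNA of a whole larva mixes all of these, and fewer cells of a type and less RNA per cell cannot be told apart in it.

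Annotated contigs held 43.1% of the FPKM of the untreated library, and 42.7 to 43.2% in the other libraries. The 399 descriptions held 82.1% of this annotated part and 35.4% of the library. Library totals ran from 1039707 to 1080208 FPKM. No read counts stand behind these values here, and their counting error is unknown. FPKM also sums over fragments of 1 mRNA that were assembled as separate contigs, so a long mRNA in pieces counts several times: 118 of the 399 descriptions had 1 contig, 260 had at least 90% of their sum on 1 contig, and 53 had no single contig of 100 FPKM.

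Few proteins accounted for most of the described RNA. The 10 highest descriptions held 22.6% of the described FPKM, the 30 highest held 39.05%, and the 50 highest reached 50%. It took 1033 descriptions to reach 90%. Of 8486 descriptions above 0, 2652 were at 10 FPKM or more, 89 at 1000 or more and 3 at 10000 or more. The median of the 399 was 235.8 FPKM, against 4.16 FPKM over all descriptions above 0. At the threshold, the lowest 5 inside were the complex I subunit NDUFA6 at 100.4 FPKM, the matrix protein TGFBI (transforming growth factor-beta-induced protein ig-h3) at 101.8, the translation repressor eif4ebp3l at 101.9, thyroid peroxidase at 102.4 and S100-A6 at 102.5. Just outside were protein tyrosine phosphatase type IVA 2 at 99.6 FPKM, the plasma protein fetuin-B at 99.6, claudin-4 of tight junctions at 99.5, ADP-ribosylation factor 1 at 99.4 and the sulfide-oxidizing enzyme ETHE1 at 98.99.

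**Figure D1:**
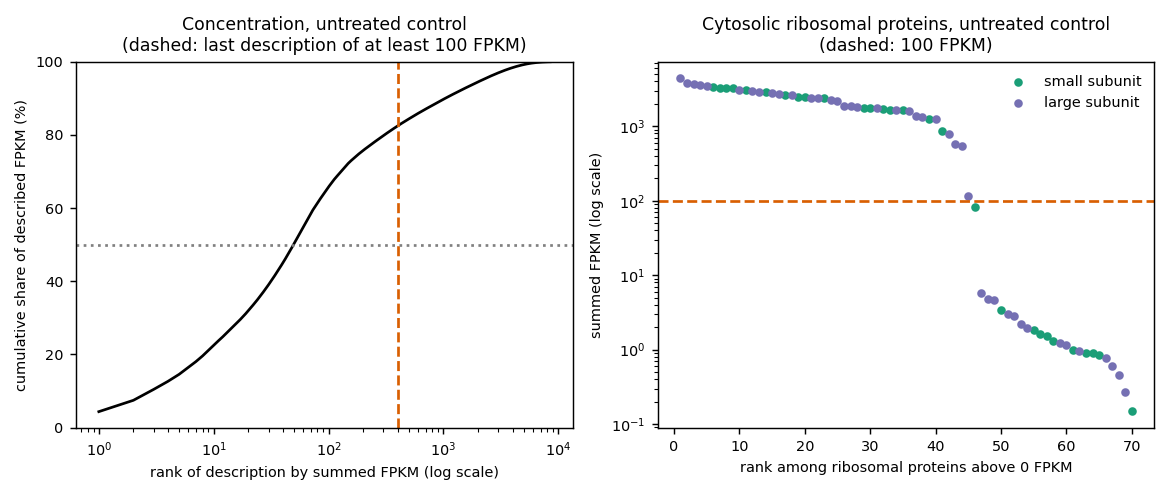
The left panel plots the cumulative share of described FPKM in the untreated library (%) against the rank of each description by its sum (log scale), and the dashed line marks the 399 descriptions of at least 100 FPKM, which held 82.5% of it (contigs described as None left out). The right panel plots the summed FPKM (log scale) of each cytosolic ribosomal protein above 0 by rank, with the 100 FPKM line dashed, and shows 45 proteins above it, 1 at 82.7 FPKM and the rest under 10.

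Each description was placed in 1 of 28 classes. These were of tissue or function, except 1 that held the remaining descriptions, called in no class below. Cytosolic ribosomal proteins led with 27.6% of the FPKM of the 399, followed by sarcomere and other muscle proteins with 22.6% and digestive proteins with 7.86%. These 3 classes held 58.0%, and with the mitochondrially encoded respiratory subunits (5.88%) and the nuclear-encoded respiratory chain, ATP synthase and ADP/ATP carriers (5.57%) the share was 69.5%. Keratins and epidermal proteins followed with 4.41%, translation factors with 3.59% and the actin and tubulin cytoskeleton with 3.35%. In all, 231 descriptions in classes of function held 53.99%, 129 in classes of tissue held 43.5%, and 39 in no class held 2.55%. The number of descriptions did not follow the share: the nuclear-encoded respiratory class had 49 descriptions, the ribosomal class 46, the muscle class 44 and the digestive class 16.

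**Figure D2:**
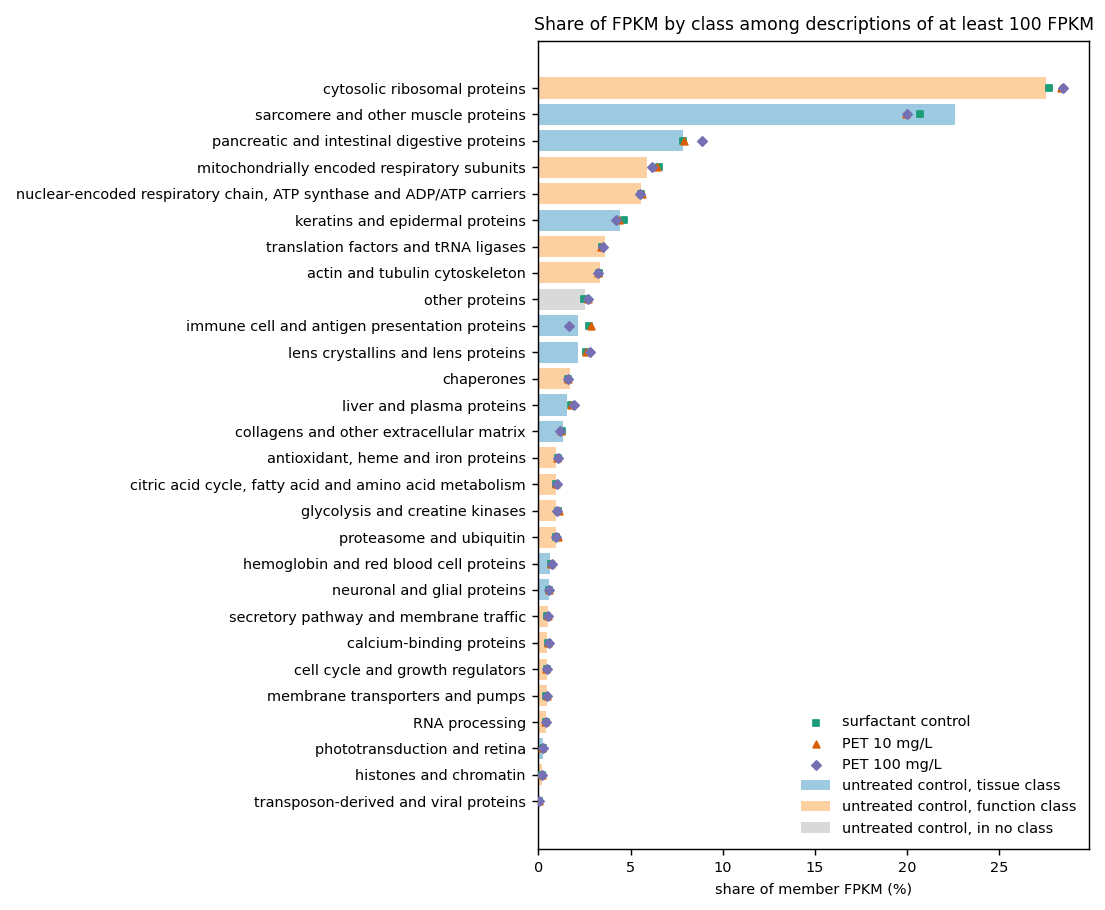
Bars give the share of the FPKM of the 399 descriptions in the untreated library (%) for each of the 28 classes, in blue for tissue, orange for function and grey for no class, and symbols give the same share in the other 3 libraries. The order of the highest classes is the same in all 4 libraries for the first 3, and the muscle share is highest in the untreated library (22.6%, against 19.96 to 20.7%).

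Cytosolic ribosomal proteins, the structural subunits of the ribosome, were the largest class and ran from 116 to 4389 FPKM within it. Of 79 proteins of the cytosolic ribosome looked for by name, 45 were at 100 FPKM or more, 17 of the small and 28 of the large subunit, with a median of 2369.9 FPKM. L17 was the highest at 4389, 4422, 4842 and 4369 FPKM, and L27, L21, L26 and L23 of the large subunit and S15a, S27, S7, S3a and S25 of the small subunit were all among the 30 highest descriptions of the library. The remaining ribosomal proteins were far lower and not spread evenly. S9 was at 82.7 FPKM, 29 others with a description were under 10 FPKM, of which 15 were under 1, and no contig carried the name of 4 (S15, L14, L38 and L41). L9 was the highest of those under 10, at 5.83 FPKM, so that no ribosomal protein lay between it and S9. These levels come from the described contigs alone, 56.9% of the library's FPKM carried no description, and whether contigs of the low ribosomal proteins lie there was not tested.

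Factors that work on the ribosome were high as well. Elongation factor 1-alpha, which brings aminoacyl-tRNA to the ribosome, was at 4189, 3987, 4073 and 3992 FPKM. Elongation factor 2, which moves the ribosome along the mRNA, was at 1985 FPKM, the ribosome-bound scaffold RACK1 (guanine nucleotide-binding protein subunit beta-2-like 1) at 2012, the nascent chain-binding NAC subunit alpha at 1231 and initiation factor 1 at 824. All 16 descriptions of the class together held 13213 FPKM. Chaperones, which fold the products, had 8 descriptions with 6283 FPKM, led by a peptidyl-prolyl cis-trans isomerase at 2222 FPKM, the constitutive heat shock cognate 70 kDa protein at 2024 and HSP 90-beta at 987. Polyubiquitin, the precursor of the degradation tag, was at 1922, 2051, 2436 and 1999.8 FPKM.

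Muscle proteins were led by the contractile apparatus of fast fibres. Myosin heavy chain of fast skeletal muscle, the motor protein, had the highest sum of all descriptions, at 19442, 15401, 15339 and 17208 FPKM. It was highest in the untreated library, where 34 of its 38 contigs were above 0 and the highest of them held 38.8% of it, 7538 FPKM. The essential light chain of this motor (myosin light chain 3, skeletal muscle isoform) stood on 1 contig, at 13851, 12639, 12525 and 11999.5 FPKM. By single contigs the light chain was therefore the higher of the pair.

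The calcium switch and the energy supply of the same fibres came next. Parvalbumin beta, which takes up calcium to speed relaxation, was at 9879.9, 11414, 10155 and 10608 FPKM, lowest in the untreated library. Skeletal troponin C, the calcium sensor of the thin filament, was at 8516, 8343, 8338 and 7021 FPKM. Creatine kinase M-type, which buffers ATP, was at 8402, 7681, 7526 and 6977 FPKM. Both were highest in the untreated library and lowest at 100 mg/L. Tropomyosin alpha-1, which covers the myosin sites on actin, was at 6296, 6689, 6236 and 5175 FPKM.

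Within the class, 7 descriptions of skeletal myosins, troponins and the fast-type myosin-binding protein C held 54.9% of the FPKM. Parvalbumin held 11.9% and the creatine kinases of muscle 10.9%. By contrast 6 heart and slow muscle forms summed to 843 FPKM, 1.01% of the class, the highest being the ventricular regulatory light chain at 165 FPKM. The calcium store of the sarcoplasmic reticulum was represented by SERCA1 (the calcium pump), calsequestrin-1 and the histidine-rich calcium-binding protein, which summed to 2151, 1657, 1640 and 1503 FPKM, highest in the untreated library. The giant proteins titin and nebulin, springs and rulers of the sarcomere, were at 148 and 142 FPKM, and 27 of titin's 34 contigs were above 0 and none reached 100 FPKM.

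Digestive proteins were mainly enzymes that the exocrine pancreas secretes. Trypsin-1 was at 6884, 7081, 7188 and 7445 FPKM and trypsin-3 at 4876, 5389, 5450 and 5583, both lowest in the untreated library. Trypsins cut dietary protein and activate the other zymogens. Together with elastase-1 (2619.7 FPKM), chymotrypsin-like elastase 2A (2191) and the chymotrypsins, 7 serine proteases and elastases held 68.5% of the class. Pancreatic alpha-amylase, which digests starch, was at 2999, 3019, 2819 and 3388 FPKM, and with alpha-amylase 2B made up 18.9%. Bile salt-activated lipase was at 802 FPKM and carboxypeptidase A1, which trims peptides from their end, at 577. The class held 7.86, 7.85, 7.87 and 8.85% of the FPKM of the 399 descriptions, highest at 100 mg/L. These shares also count the alpha-1-antitrypsin homolog, which is not a digestive enzyme, at 1074, 1364, 1298 and 1664 FPKM. With 17 misplaced descriptions moved between classes, the untreated share was 7.69%.

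Few respiratory proteins encoded in the mitochondrial genome had a description, and some of these were very high. Cytochrome c oxidase subunit 1, the catalytic core of complex IV, was at 13263, 14881, 15079 and 14558 FPKM, the third of the 3 descriptions above 10000. Subunit 3 of the same complex was at 7121, 8289, 7884 and 7314 FPKM. Both were lowest in the untreated library. The complex I subunits ND2 and ND1 (NADH-ubiquinone oxidoreductase chains 2 and 1) were at 1061, 1313, 1093 and 664 FPKM and at 188, 269.97, 302 and 163 FPKM, both lowest at 100 mg/L. Of 13 mitochondrially encoded proteins looked for, 7 had a contig and these 4 reached 100 FPKM, while cytochrome b was at 3.19 FPKM. Complex I chain 4L and ATP synthase subunit a had a contig listed at 0. Whether contigs of the low or missing proteins lie among those without a description was not tested.

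The nuclear-encoded part of the same machinery was broader and lower. ATP synthase, which makes ATP from the proton gradient, had 9 descriptions with 6931 FPKM, 33.8% of the class, with its beta subunit at 2269, 2233, 2241 and 1967 FPKM. The ADP/ATP carriers, which exchange ATP for ADP across the inner membrane, had 3 descriptions with 3712 FPKM. Complex I had 21 descriptions with a median of 163.5 FPKM and 3911 in sum, complex IV had 7 with 3636, and complex III had 3 with 512. Nuclear-encoded subunits of complex IV were thus led by subunit 5A at 859 FPKM, beside 13263 for the mitochondrially encoded subunit 1. Among the described proteins of glycolysis, aldolase B, the fructose-metabolizing form of liver and gut, was highest at 2285, 2725, 3006 and 2529 FPKM. Phosphoglycerate kinase 1 followed at 296 FPKM. Contigs described as None are not in this ranking. The highest accessions among them were at 1061 and 631 FPKM, both above phosphoglycerate kinase 1, and whether they are glycolytic enzymes was not tested.

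**Figure D3:**
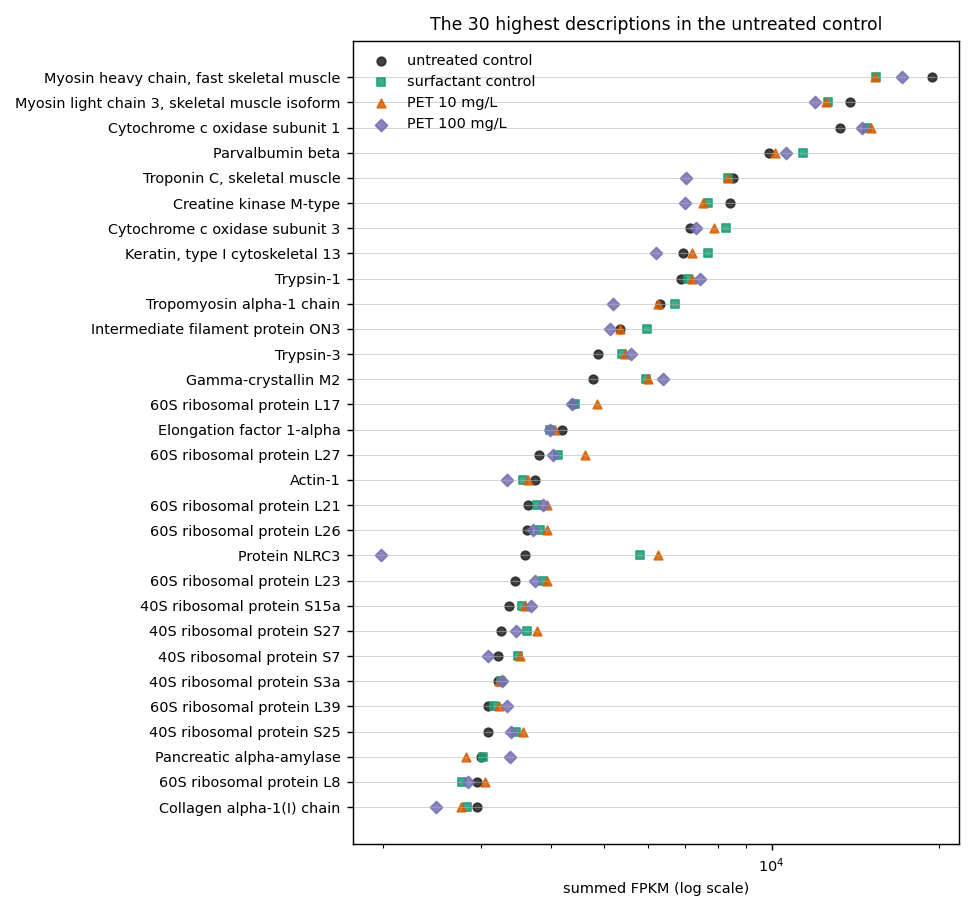
Points give the summed FPKM (log scale) of the 30 descriptions highest in the untreated library, in each of the 4 libraries. Fast skeletal myosin heavy chain leads at 19442 FPKM in the untreated library, and the NLRC3 description is the one whose libraries lie farthest apart, from 1977 to 6239 FPKM.

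The skin and the supporting tissues gave the next groups. Keratin 13, a type I keratin of stratified epithelium, was at 6917, 7676, 7195 and 6191 FPKM. The fish intermediate filament protein ON3, a type II keratin-like protein named from goldfish, was at 5334, 5955, 5337 and 5121 FPKM. ON3 was placed with the epidermal proteins by reading its description, and the tissue it came from was not tested. Keratins 8 and 18, a pair of simple epithelia, were at 1845 and 567 FPKM. Junction proteins of epithelia were lower, with blastomere cadherin at 269.6 FPKM, cadherin-1 at 177, plakophilin-3 at 104 and desmoglein-3 at 103. Of the actins, the descriptions Actin-1 and Actin were at 3757 and 2725 FPKM, and the actin-binding thymosin beta-12 was at 1483 and profilin-1 at 940.5 FPKM. Near-identical copies share reads, so the split between actin descriptions is uncertain, as it is between trypsins, crystallins, keratins and hemoglobins.

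Extracellular matrix had 8 descriptions with 4845 FPKM, and collagen alpha-1(I), the main fibre of skin and bone, held most of it at 2944, 2831, 2756 and 2489.7 FPKM. Its partner chain alpha-2(I) was at 159.8 FPKM, and whether further contigs of that chain lack a description was not tested. SPARC, a collagen-binding protein of mineralizing tissue, was at 925 FPKM, periostin at 298 and the cartilage collagen alpha-1(II) at 137.

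Summed lens proteins were lower in the untreated library than in every other library, as were the summed red blood cell and plasma proteins. Crystallins are the refractive proteins of the lens, and 4 gamma crystallins summed to 6294, 7863, 7946 and 8432 FPKM and 3 beta crystallins to 1522, 1863, 1815 and 1876. Gamma-crystallin M2, of the fish-specific M family, was at 4762, 5942, 6004 and 6383 FPKM and held most of the class. The lens share of the 399 was 2.13, 2.56, 2.58 and 2.79%. From the retina came the rod phosphodiesterase gamma subunit at 374, 415, 377 and 395 FPKM, the green-sensitive opsin at 186 FPKM, the cone arrestin-C at 161 and a violet-sensitive opsin at 112.

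Blood and liver proteins were present at moderate levels. Embryonic hemoglobin alpha was at 2034, 2145, 2363 and 2522 FPKM, while hemoglobin alpha-1 was at 293, 389.9, 294 and 280.1 FPKM, so the embryonic form was the higher in each library. Apolipoprotein D, a lipid carrier, led the plasma class at 1735, 1892, 1777 and 2128.5 FPKM. The liver basic fatty acid-binding protein fabp10-A was at 1222, 1609, 1557 and 1481 FPKM, and serotransferrin-1, the iron carrier of plasma, at 784, 866, 889 and 1086 FPKM. Retinol-binding protein 4-A, alpha-2-HS-glycoprotein and coagulation factor VII were at 398, 239 and 179 FPKM. These 3 and the 3 before them were lowest in the untreated library, and the class share was 1.57, 1.74, 1.74 and 1.93%.

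Among descriptions of immune and lysosomal proteins, NLRC3 stood apart. NLRC3 is a cytosolic NACHT and leucine-rich repeat protein, of a family that is much expanded in fish. Its description was at 3605, 5804, 6239 and 1977 FPKM, 52 of its 58 contigs were above 0 in the untreated library, and 75.3% of the untreated sum lay on 1 contig, at 2714, 4895, 5315 and 1071 FPKM. The libraries differed by 3.16-fold from lowest to highest, the widest range of the 399, and the class share moved with it, at 2.14, 2.74, 2.85 and 1.65%. The lysosomal protease cathepsin L followed at 1001, 1201, 1024 and 729 FPKM, and beta-2-microglobulin, the light chain of MHC class I, was at 217 FPKM.

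The smaller classes were of housekeeping and exchange functions. Glutathione S-transferase A4 and the phospholipid hydroperoxide glutathione peroxidase, which act on lipid peroxides and their products, were at 624, 686, 765 and 764 FPKM and at 589.5, 666, 731 and 760.2 FPKM, and Cu-Zn superoxide dismutase was at 269 FPKM. Glutathione S-transferase Mu 1 was at 459, 556, 337 and 308 FPKM. Calcium-binding S100-A1 was at 583 FPKM, S100-G (calbindin-D9k) at 459.7 and calmodulin at 332. Rh type C 2 and type B ammonium transporters, which release ammonia across gill and skin, were at 343 and 227 FPKM, beside the sodium pump subunit alpha-1 at 333. Histone H3.3, the replication-independent form, was at 529.7 FPKM and cold-inducible RNA-binding protein A at 465.

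The 39 descriptions in no class included names from other organisms. P30 adhesin, named from a bacterium, was the highest of them, at 1179, 849, 1098 and 881 FPKM on 1 contig. Saxitoxin and tetrodotoxin-binding protein 1, named from pufferfish, was at 812, 997, 1134 and 1369 FPKM, lowest in the untreated library. Methionine aminopeptidase 2, which removes the first methionine of new proteins, was at 875, 832, 856 and 800.4 FPKM. High choriolytic enzyme 1, an egg envelope-digesting protease of hatching known from medaka, was at 281, 278, 307 and 286 FPKM. The description with the most contigs, a gastrula zinc finger protein named from Xenopus, had 73, of which 65 were above 0 and none reached 100 FPKM. Its sum of 237.6 FPKM thus came from many low contigs, the highest at 30.5 FPKM.

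Marker genes of 22 tissues or cell types, 130 in all, were read as a check of the label of a whole larva. Of these, 96 had a contig, 19 tissues had a marker at 1 FPKM or more and 14 had one at 100 or more. Fast muscle markers summed to 42026 FPKM, exocrine pancreas to 14875, epidermis to 9436, lens to 7157, and cartilage and bone to 4012. Not all members of a list were high. In epidermis TP63 was at 2.28 FPKM and desmoplakin at 0.39, and KRT5 had no contig. Keratins 8 and 18 of simple epithelia gave 1845 and 567 FPKM of the epidermis sum. For cartilage and bone, COL1A1 of skin and bone gave 2944 FPKM and SPARC 925. COL2A1 was at 137 FPKM, ACAN at 5.69 and MATN1 at 0.93, and COL10A1, BGLAP and SPP1 had no contig. Red cell markers summed to 2399 FPKM, with the heme synthesis enzyme ALAS2 at 38.02 and hemoglobin beta at 8.10 FPKM. The hemoglobin beta value stands on 1 described contig, and whether other beta contigs lack a description was not tested. Liver markers summed to 1248 FPKM, of intestine to 802, of photoreceptors to 398, of heart to 392 and of ionocytes to 359. Atrial light chain MYL7 was at 41.3 FPKM, cardiac troponin T at 59.0 and the atrial natriuretic peptide at 25.97.

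Markers of other cell types lay lower. Those of immune cells summed to 244 FPKM, of which beta-2-microglobulin was at 217 and CD74 at 26.4. PTPRC and MPEG1 were listed at 0, and LYZ, MPO and IGHM had no contig. Among cycling cells the replication clamp PCNA was at 105, 99.4, 85.8 and 100.3 FPKM, and CDK1, cyclin-B1 and TOP2A at 19.7, 15.5 and 12.4 FPKM. Of the pigment cell markers, GCH1 of pteridine synthesis was at 70.3 FPKM, MLANA at 42.6 and PMEL at 20.2. The others were low, with TYR at 1.99 FPKM, TYRP1 at 0.38 and XDH at 0, and DCT had no contig. Neuronal markers summed to 85.9 FPKM, with SNAP25 and synaptophysin of the synapse at 38.7 and 25.2 FPKM and the RNA-binding ELAVL3 at 21.7. The neuronal markers SYT1 and STMN2 were at 0.18 and 0.13 FPKM, and GAP43 had no contig. Of the hormones, somatostatin was at 7.38 FPKM, glucagon at 4.60, insulin at 2.01, stanniocalcin at 8.95 and POMC at 1.67. Thyroid peroxidase was at 102 FPKM and thyroglobulin at 11.1. Markers of gonad and yolk summed to 2.46 FPKM, with the yolk precursor vitellogenin-1 at 0.71. The glial markers with a contig, GFAP and FABP7, were listed at 0, and no contig carried the names of the 4 markers of swim bladder and endothelium.

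**Figure D4:**
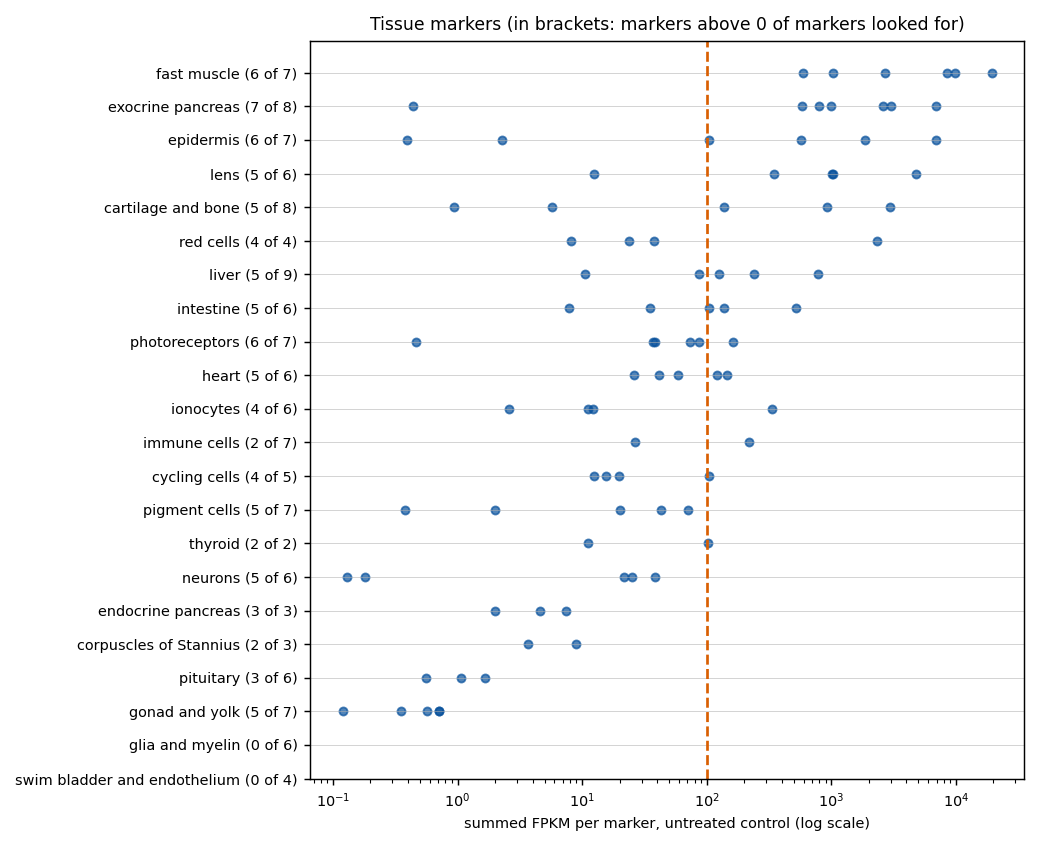
Each point is the summed FPKM (log scale) of 1 marker above 0 in the untreated library, by tissue, with the number of markers above 0 in brackets and 100 FPKM dashed. Fast muscle markers lie highest, and no marker of glia and myelin or of swim bladder and endothelium is above 0.

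Gene Ontology terms in the table gave a view that did not use the classes. Contigs with the term structural constituent of ribosome were 1.246% of annotated contigs and held 20.3% of annotated FPKM. Those of serine-type endopeptidase activity were 0.647% and held 4.57%, those of the myosin complex 0.369% and 3.45%, those of the intermediate filament 0.213% and 1.74%, and those of lens structure 0.238% and 1.80%. Several broad terms held less FPKM than their share of contigs. Contigs with the term nucleus were 20.8% and held 9.17%, DNA binding 8.36% and 1.54%, and regulation of transcription 5.39% and 1.16%. The same held for integral component of membrane (18.6% and 11.6%), mitochondrion (3.78% and 2.42%) and extracellular region (4.17% and 3.72%). Other broad terms held more FPKM than their share of contigs, namely calcium ion binding (3.96% and 9.68%) and ATP binding (12.02% and 13.8%). The terms did not cover every contig of a kind. Cytochrome c oxidase subunit 1 alone was at 13263 of 448026.5 annotated FPKM, above the share of the mitochondrion term. Fast skeletal myosin heavy chain, at 19442 FPKM, was likewise above the share of the myosin complex term. Of the 399 descriptions, 6 had the term regulation of transcription, 1.504% of them against 5.04% of all descriptions. In the class of cell cycle and growth regulators, the growth inhibitor Tob1 was at 256 FPKM and X-box-binding protein 1, a transcription factor of the secretory stress response, at 221.

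The abundant descriptions kept their levels across the 4 libraries within narrow ranges. The ratio of the highest to the lowest of the 4 values had a median of 1.15, and 265 of the 399 were under 1.2-fold. In all 4 libraries 380 stayed at 100 FPKM or more. The same counts were not made over descriptions below 100 FPKM, so narrow ranges are not shown to be particular to the 399. The lowest value of any of the 399 in any library was 63.7 FPKM, of prostaglandin reductase 1, at 104, 133, 69.2 and 63.7 FPKM. It shared a ratio of at least 2 with NLRC3 and alpha-actinin-1, an actin cross-linker at 236, 245, 145 and 294 FPKM, lowest at 10 mg/L. Nothing else in the 399 reached that ratio. The 28 class shares differed by at most 1.31-fold between the libraries except for the immune class (1.73-fold).

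Each of the other libraries was then set against the untreated library at 1.5-fold, on log2 of FPKM plus 0.5. All 3 comparisons share the untreated library, so they are not independent of each other. In the surfactant control 1 of the 399 was past 1.5-fold (0.251%), against 10.2% of all 6394 descriptions of at least 1 FPKM. In PET 10 mg/L it was 5 (1.253%), against 9.73%, and in PET 100 mg/L 10 (2.51%), against 10.7%. Descriptions of 10 to under 100 FPKM had 1.73, 1.86 and 2.62%, so the low shares were not particular to the 399. Past 2-fold were 0 of the 399 in every library, against 4.99, 4.72 and 4.61% of all descriptions of at least 1 FPKM. The 2-fold share of descriptions of 10 to under 100 FPKM is not given, so this contrast is not shown to be particular to the 399. Median log2 ratios of the 399 were 0.03, 0.03 and 0.04, beside -0.01, 0.01 and 0.07 over all descriptions of at least 1 FPKM.

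The descriptions past 1.5-fold were few enough to name. NLRC3 was higher in the surfactant control and at 10 mg/L (log2 ratios 0.69 and 0.79) and lower at 100 mg/L (-0.87). At 10 mg/L, uncoupling protein 2, a mitochondrial carrier, was higher (297, 267, 459.5 and 445 FPKM, log2 ratio 0.63), as was ND1 (0.68), and ribosomal protein L11 (1646, 1599, 1038 and 1096 FPKM, -0.67) and alpha-actinin-1 (-0.69) were lower. L11 was lower in both PET libraries than in both others, and uncoupling protein 2 was higher in both.

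At 100 mg/L the protease inhibitor cystatin-B had the highest ratio, at 152, 206, 217 and 284 FPKM (log2 ratio 0.90). It was followed by saxitoxin and tetrodotoxin-binding protein 1 (0.75), the alpha-1-antitrypsin homolog (1074, 1364, 1298 and 1664 FPKM, 0.63), S100-G (459.7, 451, 570.3 and 690.0 FPKM, 0.59) and ribosomal protein S5 (877, 883, 1000.2 and 1316 FPKM, 0.59). Lower at 100 mg/L, beside NLRC3 and L11 (-0.59), were SERCA1 (1177, 788, 890.3 and 695 FPKM, -0.76), prostaglandin reductase 1 (-0.70) and ND2 (-0.68). SERCA1 was highest in the untreated library, as were skeletal alpha-actin (588, 393, 398 and 547 FPKM) and the muscle ubiquitin ligase TRIM54 (201, 135, 144 and 147 FPKM), which stayed under 1.5-fold. Choosing descriptions by a high untreated value favours lower values elsewhere, and the choice on the mean of the 4 libraries gave 405 descriptions, with 1, 6 and 10 past 1.5-fold.

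**Figure D5:**
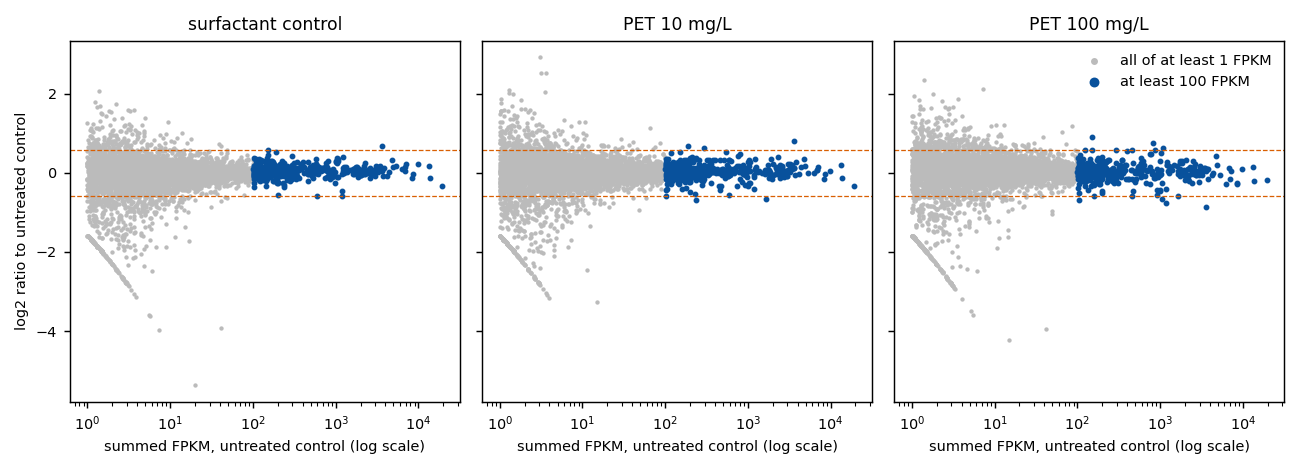
Each panel plots the log2 ratio of 1 library to the untreated library, of FPKM plus 0.5, against the summed FPKM in the untreated library (log scale), for all 6394 descriptions of at least 1 FPKM in grey and the 399 of at least 100 FPKM in blue, with 1.5-fold dashed. Past 1.5-fold were 1, 5 and 10 of the 399 from left to right.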

How the data were processed

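Total RNA of whole larvae was prepared with a column kit and sequenced with standard Illumina protocols, per the labels' protocols. Tools named in the submitters' processing notes are bcl2fastq (2.20.0.422), RSEM and Bowtie, the last 2 without a version. The assembler and the source of the annotation are not given in the sources used here. The authors deposited expression as FPKM of 257521 contigs, per the file headers. FPKM keeps no read counts, so depth is unknown and no interval was computed.

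From these values, FPKM was summed over contigs with the same description (the text before its source note). The word None stood as description in 234 contigs, which were kept apart by accession, and 3 accessions of this kind at or above the threshold are not among the 399. Shares of FPKM within a library equal shares of TPM. Descriptions were placed in 28 classes by ordered word patterns, and 55 that no pattern took were placed by reading. Some were misplaced, and moving 17 of them is 1 of the alternatives. Ratios were taken on log2 of FPKM plus a pseudocount of 0.5.

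Markers were matched by symbol. The rule first written down also took other genes and missed fish names, and its sums differed by over 1.5 times in 6 tissues. By it, in FPKM and beside the sums reported, fast muscle was at 12117 (42026), exocrine pancreas at 2378 (14875), lens at 1364 (7157), red cells at 369 (2399), pituitary at 18.1 (3.29), and gonad and yolk at 61.9 (2.46). Symbols of fish genes were added and 2 other proteins left out for the reported sums, after the values were seen. Genes named were drawn from the 30 highest descriptions and the 6 highest of each class. Others came from the 5 highest and 5 lowest ratios of each library, the 5 on each side of the threshold and the markers. Also used were the 10 highest contigs without description and the 5 descriptions with the most contigs. Groups of subunits within a class, and other names, were chosen after their values were seen. The threshold, the classes and the lists were chosen with earlier results of these data known. Other thresholds, single contigs, patterns alone, pseudocounts and scaling were tried as alternatives. Computations used Python 3.11.15, pandas 2.3.3, numpy 2.4.6 and matplotlib 3.10.9 and were tested on simulated data.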

Additional observations from a re-analysis of the deposited data

How the results depend on the processing

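Of 270 alternative values, 240 stayed within 1.5 times the value reported and 30 did not. The 28 class shares in each of the other libraries are counted among the 240, though another library is no change of processing. Classes with no description moved in or out could hardly change in that alternative. The count therefore does not measure how far the results depend on processing. The number of abundant descriptions was 346 by the highest contig alone and 400 with the contigs described as None summed as 1. By the highest contig alone the ribosomal share was 30.3%, the muscle share 20.7%, the digestive share 7.87% and that of extracellular matrix 0.848%. With patterns alone the keratin share was 2.77%, the immune share 0.825% and the share in no class 9.43%, since the 55 descriptions placed by reading, ON3 and NLRC3 among them, then fall in no class. With patterns alone and no threshold these were 2.39%, 1.02% and 18.8%. The share in no class was 4.91% at a threshold of 50 FPKM and 1.59% at 200 FPKM, as more or fewer descriptions were counted. Moving 17 misplaced descriptions, chosen after seeing the data, took the neuronal share from 0.554% to 0.290%. As reported, the highest description of the neuronal class was gastrotropin (FABP6) at 519 FPKM, which is an intestine marker above. None of the class shares moved by over 1.5 times in another library by this measure. The share without description was 55.5% when contigs under 1 FPKM were left out and 52.0% under 10 FPKM. Past 1.5-fold were 7 and 12 descriptions at 10 and 100 mg/L after scaling by the median ratio, beside 5 and 10. No paired analysis was possible because each group held 1 library. Depth is unknown, so levels near 0 cannot be told from absence.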

Other observations

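Contigs without a description held 56.9, 56.8, 57.3 and 57.0% of the FPKM of the 4 libraries, in the order untreated control, surfactant control, PET 10 mg/L and PET 100 mg/L. In the untreated library 395 of these contigs were at 100 FPKM or more and 74 at 1000 or more, against 426 and 90 described contigs. The 10 highest held 10.8% of the library. The highest of all contigs, TR121282|c13_g1_i1, was at 32815, 30307, 29246 and 25588 FPKM, 3.16% of the untreated library and above any described protein. It was highest in the untreated library and lowest at 100 mg/L. The 6 contigs of its name stem summed to 51818 FPKM. Another contig without description, TR119455|c5_g1_i1, was at 12354, 12959.7, 12651 and 9710.3 FPKM. Only 1.98% of the FPKM without description lay on contigs whose name stem also held a described contig.

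Ranges were read only for the 10 highest contigs without description, and TR65613|c0_g1_i1 had the widest of these. It was at 6326, 11319, 12797 and 3016 FPKM, a ratio of 4.24 between highest and lowest. This is the range of a single contig, which is not comparable with that of sums over contigs. The main contig of the NLRC3 description, at 2714, 4895, 5315 and 1071 FPKM, and the mitochondrial ND1, at 188, 269.97, 302 and 163 FPKM, had the same order of libraries. These were chosen after their values were seen, and what this contig encodes was not tested.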
